A study of Mus musculus with 8 samples.

Results

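The Kruppel-like factors described here are the 8 genes Klf2, Klf3, Klf4, Klf6, Klf7, Klf9, Klf10 and Klf13, followed in macrophages in which the Y RNAs were targeted with siRNA. They were found as the noncontrol probes whose gene name on the array was that of a member, which gave 10 probes among 55681. Klf13 had 3 probes and each other member had 1. All 8 genes were among the 19259 genes tested, through 9 of the 10 probes, and the remaining probe of Klf13 was too dim for the test.

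The cells were macrophages differentiated from the bone marrow of male C57BL/6J mice. Cells of each of 4 mice were transfected with a control siRNA or with siRNAs directed at the Y RNA terminal loop. The latter, plural in the labels, are called the Y RNA siRNA here, and each group held 4 arrays. Y RNAs are short noncoding transcripts that form complexes with Ro60 and La. Its title names the aim of identifying targets of s-RNYs, the small RNAs cut from Y RNAs. The sources used here do not give the age of the mice or the sequence, dose and timing of the siRNAs. The array had 0 probes named Rny1 or Rny3, so the targeted RNAs could not be checked.

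Kruppel-like factors are transcription factors that bind GC-rich and CACCC sequences in gene promoters through zinc fingers at the end of the protein, and they are close relatives of the SP factors. Klf2, Klf4, Klf6 and Klf7 act mainly as activators, Klf3 recruits the CtBP corepressors, and Klf9, Klf10 and Klf13 recruit the corepressor Sin3A. In macrophages KLF2 is known for restraining inflammatory genes, KLF4 for monocyte differentiation and alternative activation, and KLF6 for promoting inflammatory responses. Transcripts of Klf2, Klf4, Klf6 and Klf10 are short-lived and belong to the early response to many stimuli.

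Each array held 62976 spots, of which 48.7% to 50.7% of the noncontrol spots were well above background and 0 were saturated. Levels are log2 processed signals minus the 75th percentile of their array. That percentile ranged from 9.04 to 9.34 (log2) and had its lowest values in mouse 1. The 8 arrays correlated at 0.989 to 0.997 across genes. RNA integrity numbers were 10 for 7 samples and 8 for the control sample of mouse 4. All 8 macrophage markers examined, Csf1r, Cd68, Adgre1, Lyz2, Cd14, Itgam, Fcgr1 and Mertk, were well above background on all 8 arrays. Of the defining markers of other cells, Ms4a1 and Cd8a of lymphocytes, Ly6g of neutrophils, Pdgfra of fibroblasts, Xcr1 of dendritic cells, Hba-a1, Klf1 and Itga2b of erythroid cells and megakaryocytes, and Tek and Tie1 of endothelial cells were not well above background on any array. The others included Siglech, Pf4, Kdr, Cd3e, Cd4, Cd79a, Elane, S100a8, S100a9, Col1a1, Col1a2 and Dcn, which were well above background on all 8.

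Promoters of 7 of the 8 members were found in the RefSeq table for GRCm38.p6. The windows of Klf2, Klf4 and Klf6 are shown because the first 2 had the largest negative differences described below and the third, also an early response gene, had almost no difference. Each run holds the 250 bases before the transcription start, 5′ to 3′ on the strand of the gene, with GC boxes (GGGCGG on either strand) and the MEF2 site in capitals. The windows are chr8:72318812-72319061 on the plus strand for Klf2, chr4:55532476-55532725 on the minus strand for Klf4 and chr13:5861239-5861488 on the plus strand for Klf6.
Klf2: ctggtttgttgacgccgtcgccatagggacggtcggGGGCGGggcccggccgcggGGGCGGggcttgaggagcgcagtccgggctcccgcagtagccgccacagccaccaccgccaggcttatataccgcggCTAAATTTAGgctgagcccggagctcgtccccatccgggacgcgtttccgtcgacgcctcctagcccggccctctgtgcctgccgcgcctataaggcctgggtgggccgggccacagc
Klf4: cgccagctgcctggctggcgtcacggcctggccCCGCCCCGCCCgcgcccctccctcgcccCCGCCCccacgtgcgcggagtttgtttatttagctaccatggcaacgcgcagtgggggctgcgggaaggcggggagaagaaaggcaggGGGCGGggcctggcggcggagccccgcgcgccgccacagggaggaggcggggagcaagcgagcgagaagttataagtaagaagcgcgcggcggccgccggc
Klf6: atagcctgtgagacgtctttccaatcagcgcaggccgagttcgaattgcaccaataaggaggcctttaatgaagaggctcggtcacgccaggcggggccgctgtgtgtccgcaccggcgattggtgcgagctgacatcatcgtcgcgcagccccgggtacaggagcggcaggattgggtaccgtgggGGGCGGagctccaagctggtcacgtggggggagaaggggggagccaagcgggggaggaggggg

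The Klf2 window held 2 GC boxes, the Klf4 window 4, of which 2 overlap by a base, and the Klf6 window 1. Such a match was present in 32.7% of the 32851 windows in the table. Among the other members, Klf3 had 6 GC boxes, Klf13 had 3, Klf7 had 1 and Klf9 had 0. The Klf2 window also held the only match among the 7 members to the MEF2 site, an A and T rich motif bound by the MEF2 factors, starting 118 bases before the transcription start. A MEF2 match was present in 2.92% of all windows. The short CACCC motif, searched on both strands, was present in 5 of the 7 windows, missing from those of Klf4 and Klf6, against 52% of all windows. No member had a match to the palindrome TGACGTCA, bound by CREB and ATF factors (1.55% of all windows), or to the CArG box of serum response factor (1.47%). The G and C content of the 7 windows lay between 59.2% and 78.4%, and the median of all windows was 52.4%. These are matches of letters and were not measured as bound sites.

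Differences between the siRNA groups were small for all 8 genes, and 0 of 8 had an adjusted p under 0.05 in limma. The same count over all genes was 0 of 19259, or 0%. At an unadjusted p under 0.05 there was 1 member, Klf4, beside 654 genes or 3.40%. A block for the mouse, used because both groups came from the same 4 mice, also gave 0 members after adjustment, beside 0% of all genes with a fixed and 0.0571% with a random block. Before adjustment 2 members, Klf2 and Klf4, were under 0.05 with either block, beside 9.26% of all genes with the fixed and 9.50% with the random one. The largest differences were those of Klf2 and Klf4, with lower means, followed by Klf7, with a higher mean, and each of these 3 had 1 sign in 4 of 4 mice. The other 5 members differed by no more than 0.054 on the log2 scale. Of the 8 means, 4 were lower with the Y RNA siRNA, with a median difference of -0.015, beside 47.7% of all genes and a median of 0.0045. In bulk RNA, fewer cells of a type and less RNA per cell cannot be told apart.

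**Figure D1:**
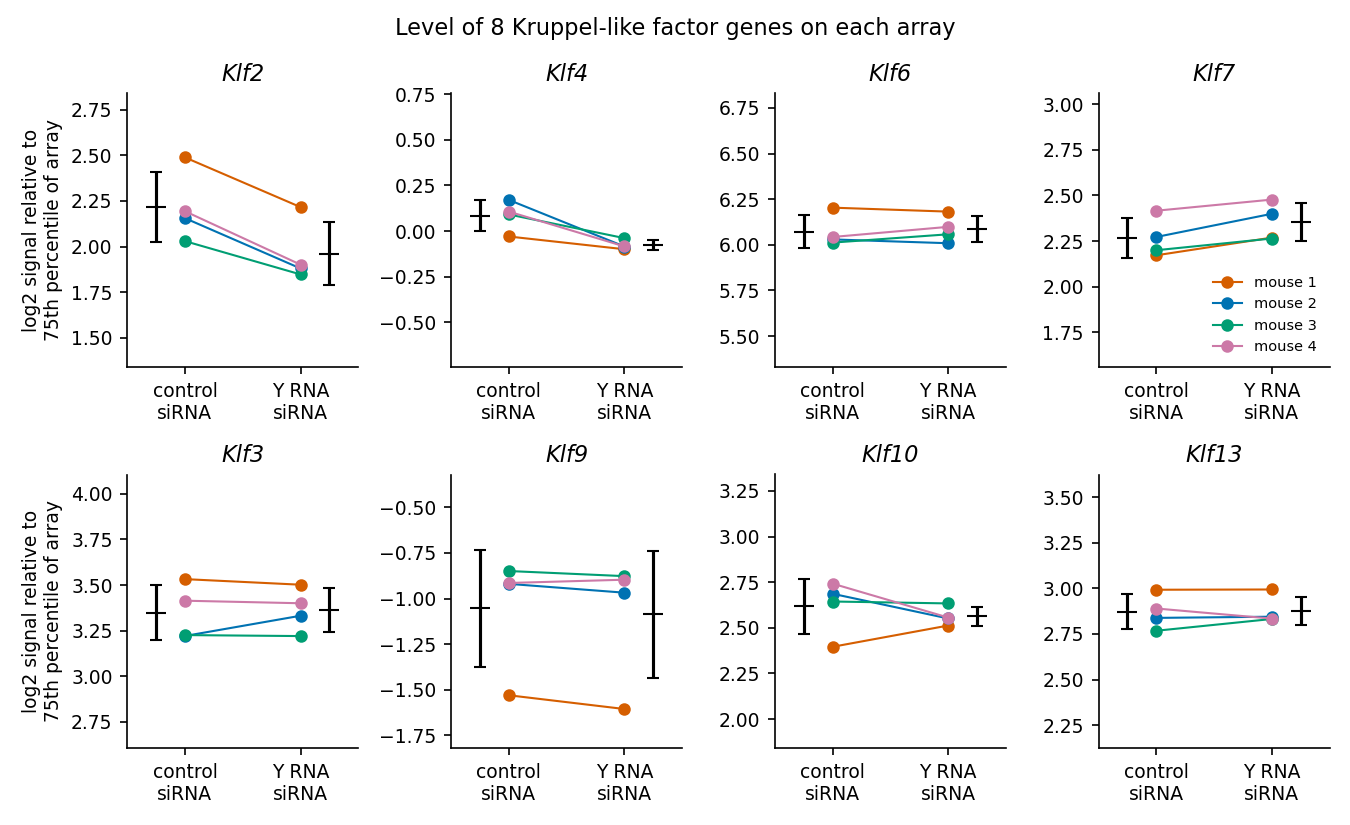
Scaled level (log2) for each of the 8 genes (y axis, 1.5 log2 units high in every panel) in the control and the Y RNA siRNA groups; points are arrays, lines join the 2 arrays of a mouse, and bars give the group mean and SD (n = 4). All 4 lines slope down for Klf2 and Klf4 and all 4 slope up for Klf7, and both arrays of mouse 1 lie apart from the rest for Klf9.

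Klf2, which encodes a factor known for keeping monocytes and endothelium quiescent, was measured by a probe on chromosome 8, 74845137 to 74845196, in build mm9. Its processed signal in control mice 1 to 4 was 2957, 2866, 2520 and 2699, and with the Y RNA siRNA it was 2440, 2318, 2334 and 2175. Every treated culture was thus below the control culture of its own mouse, and in these unscaled signals the highest treated array lay below the lowest control array. On the scaled level the controls read 2.49, 2.16, 2.03 and 2.19 and the treated arrays 2.22, 1.88, 1.85 and 1.90. The scaled groups overlapped, because the treated array of mouse 1 at 2.22 was above the controls of mice 2, 3 and 4.

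Control cultures had a mean Klf2 level of 2.22 ± 0.19 (SD, n = 4), and cultures given the Y RNA siRNA had 1.96 ± 0.17 (SD, n = 4). The log2 difference was -0.26 ± 0.12 (SE), with a 95% interval from -0.53 to 0.021, which corresponds to 0.84 times the control signal. In limma without a block the unadjusted p was 0.0653 and the adjusted p rounded to 1. The differences within mice were closely spaced, at -0.27, -0.28, -0.18 and -0.29 for mice 1 to 4. A fixed block for the mouse gave limma a standard error of 0.039, an unadjusted p of 0.00143 and an adjusted p of 0.275. The random block gave an adjusted p of 0.289.

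Klf4, whose product takes part in monocyte differentiation and alternative activation, was read on chromosome 4, 55540167 to 55540226. Its processed signal was 516, 724, 657 and 635 in control mice 1 to 4 and 490, 594, 632 and 549 with the Y RNA siRNA. The scaled levels were -0.030, 0.17, 0.091 and 0.11 in controls and -0.10, -0.085, -0.039 and -0.084 in treated cultures. Here the treated arrays lay closer together than the controls, and the groups did not overlap, although the gap between the lowest control (mouse 1) and the highest treated array (mouse 3) was narrow. Klf4 was the only member whose scaled groups did not overlap, beside 1.09% of all genes with the treated group lower. In the other direction there were 0 members, beside 1.34% of all genes. In unscaled signal the reverse held, with Klf4 overlapping and Klf2 not, beside 0.602% of all genes.

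The Klf4 mean went from 0.085 ± 0.084 (SD, n = 4) to -0.077 ± 0.026 (SD, n = 4), a log2 difference of -0.16 ± 0.056 (SE) with a 95% interval from -0.29 to -0.031. The limma p was 0.0211 before adjustment and rounded to 1 after it. Within mice the differences were -0.070, -0.26, -0.13 and -0.19, smallest in mouse 1. In limma the fixed block gave an adjusted p of 0.444 and the random block 0.264. Klf2 and Klf4 were lower in all 4 mice, which makes 2 of 8 members, and 8.86% of all genes showed that pattern. The values of both genes were already known when the family was chosen, so their direction is a description.

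Klf6, a factor of early inflammatory and injury responses, had bright signals on its probe at chromosome 13, 5869371 to 5869430. They were 38826, 42023, 39823 and 38895 in controls and 38129, 40544, 43215 and 39906 with the Y RNA siRNA. The groups overlapped almost completely, with treated cultures lower in mice 1 and 2 and higher in mice 3 and 4. Group means were 6.07 ± 0.089 for control and 6.09 ± 0.073 for treated cultures (SD, n = 4), a log2 difference of 0.015 ± 0.065 (SE). Its 95% interval ran from -0.14 to 0.16. Whether Klf6 differed from Klf2 and Klf4 in its response was not tested.

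Klf7, a close relative of Klf6 known from neurons and adipocytes, was read on chromosome 1, 64082265 to 64082324. Its signal was 2374, 3107, 2834 and 3149 in controls and 2531, 3322, 3116 and 3243 in treated cultures. Each treated array was above the control of its mouse, but the spread between mice was wider than these differences and the groups overlapped. Mean levels were 2.26 ± 0.11 and 2.35 ± 0.10 (SD, n = 4). The log2 difference was 0.087 ± 0.078 (SE), with a 95% interval from -0.092 to 0.27, and the mice gave 0.097, 0.13, 0.064 and 0.061 in turn. Its limma p was 0.293, and the fixed block brought it to 0.0610, with an adjusted p of 0.562. Klf7 was the 1 member of 8 that was higher in all 4 mice, beside 10.4% of all genes.

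Klf3, the member that recruits CtBP, had signals of 6095, 5998, 5772 and 6289 in controls and 5949, 6340, 6047 and 6148 with the Y RNA siRNA (chromosome 5, 65221309 to 65221368). Its mean level was 3.35 ± 0.15 and 3.36 ± 0.12 (SD, n = 4), and the log2 difference was 0.015 ± 0.093 (SE) with a 95% interval from -0.20 to 0.23. On the scaled level a higher value in mouse 2, by 0.11, stood beside slightly lower values in the other 3 mice. In unscaled signal Klf3 was lower in 2 mice. The groups overlapped over nearly their whole range.

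Among the members that recruit Sin3A, Klf10 had the largest difference between groups, and it was not alike in all mice. Klf10, induced early by TGF-beta, was read on chromosome 15, 38224255 to 38224314. Its signal was 2772, 4141, 3857 and 3947 in controls and 2996, 3691, 4026 and 3425 with the Y RNA siRNA. Its scaled difference was 0.12 in mouse 1 and -0.14, -0.011 and -0.19 in mice 2 to 4. Levels averaged 2.62 ± 0.15 in controls and 2.56 ± 0.051 in treated cultures (SD, n = 4), and the groups overlapped. The mean log2 difference was -0.054 ± 0.081 (SE), with a 95% interval from -0.24 to 0.13, and lay between -0.11 (without mouse 1) and -0.0098 (without mouse 4) when both arrays of a mouse were left out.

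Klf9, a gene induced by glucocorticoid and thyroid hormone, differed between mice and hardly between siRNAs. On chromosome 19, 23240410 to 23240469, its signal was 182 in the control of mouse 1 and 340, 342 and 313 in the controls of mice 2 to 4. With the Y RNA siRNA it was 173 in mouse 1 and 322, 353 and 313 in the others. Both cultures of mouse 1 were therefore well below all other arrays, and within each mouse the 2 cultures were alike. The 2 arrays of a mouse lay side by side on the slide, so mouse and slide position cannot be told apart. The log2 difference was -0.033 with a standard error of 0.21, which became 0.037 once the mouse was fitted as a fixed block. Group means were -1.05 ± 0.32 and -1.09 ± 0.35 (SD, n = 4), and without a block the 95% interval of the difference ran from -0.52 to 0.45. The lower Klf9 of mouse 1 stood beside lower levels of the neutrophil and fibroblast markers there, which were lowest in mouse 1 for 7 of the 7 tested, beside 33% of all genes. Other lists were mixed. The 3 other KLF genes tested, the 1 erythroid and megakaryocyte gene tested and 10 of 17 KLF target genes were also lowest in mouse 1. In contrast, on scaled levels 6 of the 8 macrophage markers were highest in mouse 1, beside 36.4% of all genes. The 1 dendritic and the 1 endothelial gene tested were highest there too. These ranks depend on the scaling, since the 75th percentile was lowest in mouse 1. In unscaled signal Lyz2 was still highest there. Csf1r, however, read 254831 and 258144 in mouse 1 and 286062 and 259621 in mouse 4, and Siglech and Kdr were higher in mouse 2. Unscaled ranks were not counted for the lists. Col1a2, a collagen gene of fibroblasts, had a mean level of -0.87 in mouse 1 and of 0.13 to 0.70 in the others, and S100a9, a neutrophil gene, -2.13 and -0.78 to -0.25. Their part in the Klf9 values was not tested.

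Klf13, known in T lymphocytes as an activator of the chemokine gene Ccl5, had 3 probes, which did not behave alike. The probe used for the gene, A_55_P2022082 on chromosome 7 at 71082854 to 71082913, read 4192, 4599, 4201 and 4371 in controls and 4183, 4523, 4620 and 4152 in treated cultures. Mean levels were 2.87 ± 0.095 and 2.88 ± 0.079 (SD, n = 4), the log2 difference was 0.0043 ± 0.068 (SE), and the groups overlapped. Probe A_55_P2244142, at 71032482 to 71032541, read 3855, 4428, 3971 and 4385 in controls and 3472, 4485, 4024 and 4194 in treated cultures, a log2 difference of -0.049 ± 0.074 (SE). Neither bright probe had a p under 0.05 in the limma fit over all kept probes, beside 3.33% of those probes. The listed coordinates of A_55_P2244142 run along the plus strand, whereas the Klf13 gene and its other probes are on the minus strand. For the 8 other member probes with a gene strand in the RefSeq table, the strands were the same, and which transcript A_55_P2244142 measures was not tested.

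The dim probe A_52_P281659 lists an Ensembl transcript of Klf13 as its target and spans 71036675 to 71069606, a stretch far longer than a probe. It read 43.4, 87.4, 278 and 21.5 in controls and 23.9, 24.5, 14.8 and 20.9 with the Y RNA siRNA. This exceeded background clearly (well above it, in the scanner's test) in 3 of 4 controls and in 0 of 4 treated cultures. The share of all probes with that pattern was not counted. Each treated array was then set to the higher of its own reading and the lowest signal well above background. Against these values the control mean was 2.69-fold higher, and 1.71-fold higher without mouse 3. These are not lower bounds, because the control of mouse 4, also not well above background, entered at its own reading. Its measured levels averaged -3.10 ± 1.52 for control and -4.85 ± 0.43 for treated cultures (SD, n = 4). In a limma fit over all probes with no filter its adjusted p was 0.885. The control of mouse 4 was as dim as the treated cultures, so the groups overlapped.

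**Figure D2:**
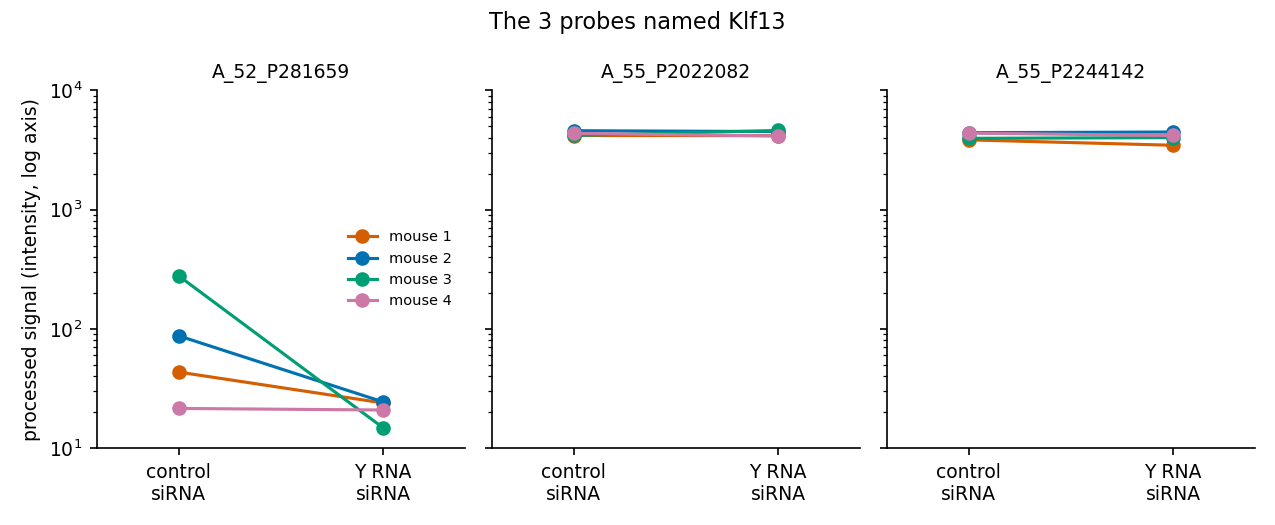
Processed signal (intensity, log axis) of the 3 probes named Klf13 in the control and Y RNA siRNA groups, with lines joining the 2 arrays of a mouse. The bright probes stay between 3472 and 4620 on all arrays, while A_52_P281659 reads 278 and 14.8 in the 2 cultures of mouse 3 and 21.5 and 20.9 in those of mouse 4.

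The precision allowed modest changes to be bounded. The 95% intervals of all 8 members lay within a 1.5-fold change in either direction, as did those of 84.7% of all genes. For 6 members, all except Klf2 and Klf9, the interval also lay within 1.25-fold, as for 56.4% of all genes. For Klf13 these statements hold for the probe used for the gene. They do not cover its dim probe A_52_P281659, at -1.75 ± 0.71 (SE) in the limma fit over all probes with no filter. In size of difference without regard to sign, Klf2 stood at the 93.3 percentile of all genes, Klf4 at 84.4 and Klf7 at 64.7. The other 5 members were below the 50th percentile.

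**Figure D3:**
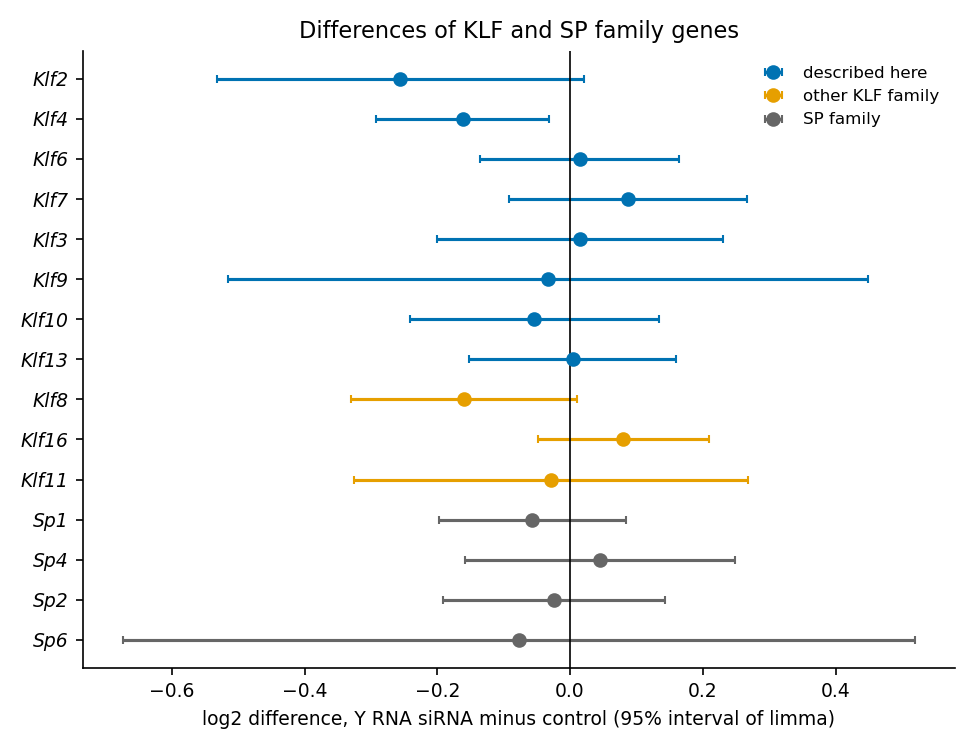
Log2 difference, Y RNA siRNA minus control, with 95% intervals from limma (x axis) for the 8 members, the 3 other KLF genes and 4 of the 5 SP genes tested (Sp8, with an SE of 1.12, is left out for scale). Klf4 is the one gene whose interval excludes 0, and Klf2 and Klf8 lie on the same side.

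The members differed among themselves in how they varied between mice, where mouse again cannot be told apart from slide position. Taking the mean of both arrays of a mouse, the range over the 4 mice was 0.70 for Klf9 and 0.41 for Klf2, and 0.11 for Klf4, beside a median of 0.25 over all genes. Klf9 stood at the 89.8 percentile of all genes in this range, Klf2 at 73.6 and Klf4 at 12.3. Mouse 1 was an end of the range for 8 of the 8 members on scaled levels, beside 69.4% of all genes. Levels were highest there for Klf2, Klf3, Klf6 and Klf13 and lowest for Klf4, Klf7, Klf9 and Klf10. Against the mean of mice 2 to 4, mouse 1 differed by 0.35 for Klf2 and -0.66 for Klf9.

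These mouse 1 values depend in part on the scaling. In unscaled signal mouse 1 was still higher for Klf2 (0.12) and lower for Klf9 (-0.90), but Klf6 (-0.081), Klf13 (-0.074) and Klf3 (-0.018) turned to lower values, since the 75th percentile was lowest in mouse 1. With quantile normalization the directions were those of the scaled levels for all 8 members, with 0.39 for Klf2 and -0.68 for Klf9.

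**Figure D4:**
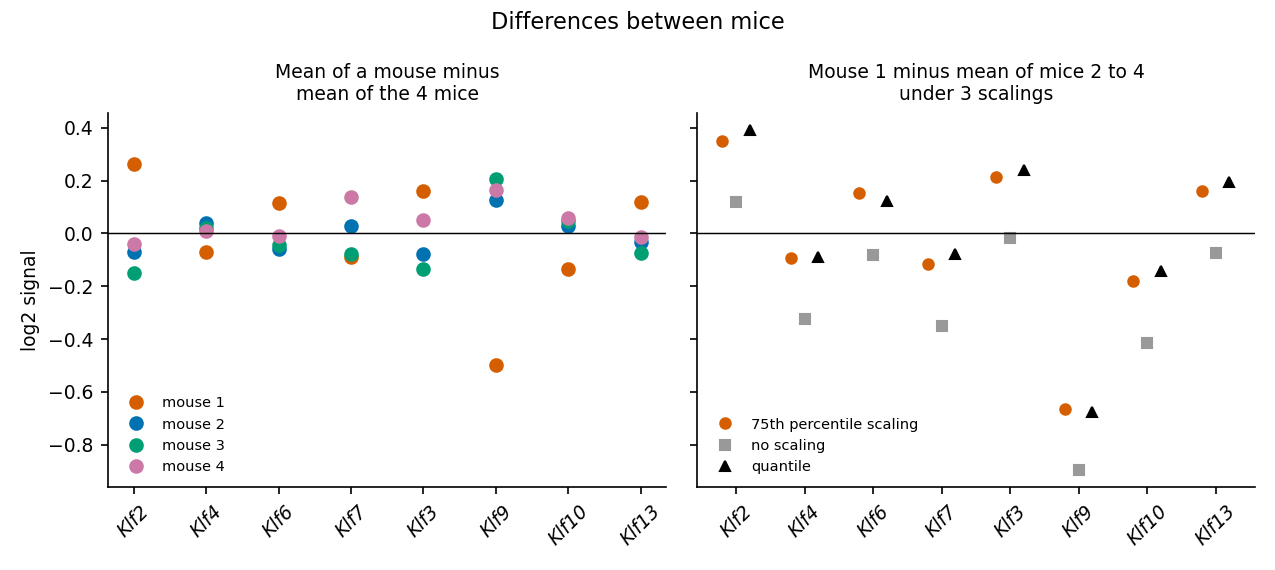
Left, mean level of the 2 arrays of each mouse minus the mean of the 4 mice (y axis, log2) for each gene. Right, mouse 1 minus the mean of mice 2 to 4 under 75th percentile scaling, no scaling and quantile normalization. Klf9 is lowest in mouse 1 under all 3, from -0.66 to -0.90, while Klf3, Klf6 and Klf13 change sign without scaling.

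For each member, the gene with a symbol whose level followed it most closely over the 8 arrays was identified. Olfactory receptor genes and genes with predicted or clone-type names (such as Rik, LOC and Gm names) were left out of the search. For Klf2 it was Pgd, a dehydrogenase of the pentose phosphate pathway, with a Pearson correlation of 0.99 over 8 arrays and 0.97 over the 6 arrays without mouse 1. For Klf4 it was Cab39l, at 0.95 and 0.96. For Klf9 it was Acaca, which encodes acetyl-CoA carboxylase, at 1.00 and 0.89, and for Klf6 the calcium sensor Stim1, at 0.97 and 0.80. For Klf7 it was Pdp2, a phosphatase of pyruvate dehydrogenase, at 0.98 and 0.99. Zer1 for Klf3 (1.00 and 0.99), Diablo for Klf10 (0.98 and 0.93) and Phactr1 for Klf13 (0.98 and 0.89) complete the set. Diablo encodes a mitochondrial protein. Each correlation is the highest among the genes searched, over arrays from only 4 mice, in which mouse 1 stands apart, so the values are descriptive. Pgd had a log2 difference of -0.13 between the siRNA groups and the other 7 genes lay between -0.082 and 0.084.

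Of the 9 other KLF genes, 3 were tested and 6 (Klf1, Klf5, Klf12, Klf14, Klf15 and Klf17) were not well above background on any array. Klf8, a CtBP-recruiting relative of Klf3, had a log2 difference of -0.16 ± 0.074 (SE). Its limma p was 0.0618, and the adjusted p rounded to 1. Klf8 was lower in 4 of 4 mice, beside 8.86% of all genes. Klf16 was at 0.080 ± 0.056 (SE) and Klf11 at -0.029. Of 5 SP genes tested, 2 were higher and 3 lower, with a median of -0.025. Sp1, the ubiquitous GC box factor, was at -0.057 ± 0.061 (SE) and Sp4 at 0.045 ± 0.088. In both lists 0 genes passed in limma after adjustment, and 0 had an unadjusted p under 0.05 without a block. Either block for the mouse brought 1 gene, Klf8, under 0.05 before adjustment, with adjusted limma p of 0.451 (fixed) and 0.348 (random). Over all genes the shares under 0.05 before adjustment were 9.26% with the fixed and 9.50% with the random block.

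Of 11 corepressor and coactivator genes 4 were higher and 7 lower, with a median of -0.018, and Hdac2 (-0.086 ± 0.073, SE) and Crebbp (-0.063 ± 0.070) had the smallest p. Ep300, a histone acetyltransferase gene, had the largest difference of that list, with 0.14, a 95% interval from -0.23 to 0.50 and 0.54 in mouse 4. Among the corepressor genes, Ctbp1 was at 0.041, Ctbp2 at -0.046, Sin3a at -0.015 and Sin3b at 0.026. Of 10 upstream regulators and ubiquitin ligases 3 were higher and 7 lower, with a median of -0.014. Foxo1, an activator of Klf2 in lymphocytes, was at -0.056 ± 0.061 (SE) and Foxp1 at -0.056 ± 0.085. The kinase genes Mapk7 and Map2k5, whose pathway activates Klf2 and Klf4 through MEF2 factors, were at -0.014 and 0.015. In limma 0 genes of these lists passed, and 0 had an unadjusted p under 0.05, without a block or with either block.

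Of 18 genes described as targets of Kruppel-like factors, 17 were tested, 10 were higher and 7 lower, and the median difference was 0.0077. Ccl5 had the largest difference, with 0.87 ± 0.22 (SE), higher in 4 of 4 mice, a limma p of 0.00454 and an adjusted p of 0.971. Its activator gene in T cells, Klf13, differed by 0.0043 on the probe used. Thbd, which encodes thrombomodulin and is induced by KLF2 and KLF4 in endothelium, was at -0.20 ± 0.088 (SE). It was lower in 4 of 4 mice, with a limma p of 0.0532 and an adjusted p that rounded to 1. Of all genes, 8.86% were lower and 10.4% higher in all 4 mice. S1pr1, another gene described as a KLF2 target, was at -0.099, Pparg at -0.14 and Mrc1, a mannose receptor of alternative activation, at 0.069. In this list 0 genes passed in limma and 1, Ccl5, had an unadjusted p under 0.05, beside 3.40% of all genes. The fixed block for the mouse brought 5 of 17 under that p, beside 9.26% of all genes: Ccl5, Itgb7 and Chil3 with higher means and Thbd and Pparg with lower ones. The random block brought 3, Ccl5 and the lower Thbd and Tgfb1, beside 9.50%. With it the limma p was 0.0537 for Pparg, 0.51 for Itgb7 and 0.825 for Chil3. Between mice Chil3 ranged over 6.97, the widest range of all genes, beside a difference of 0.25 between siRNA groups. After adjustment 0 genes of the list passed with either block. In limma the adjusted p for Ccl5 was 0.205 (fixed) and 0.0859 (random), and for Thbd 0.387 and 0.294. Of those named here, S1pr1, Pparg, Itgb7, Chil3, Tgfb1 and Mrc1 were chosen after their values were seen, as were Ep300 and the corepressor and kinase genes above.

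Of 8 macrophage markers 2 were higher and 6 lower, with 0 passing in limma, 0 at an unadjusted p under 0.05 and a median of -0.040, and their summed scaled signal was 1571 to 1877 in controls and 1554 to 1858 with the Y RNA siRNA. The endothelial list, cells in which Klf2 and Klf4 are also prominent, had 1 gene tested of 4, and its summed signal was 5.88 to 6.56 in controls and 5.40 to 6.41 in treated cultures. The lymphocyte list had 3 of 6 tested, all with lower means, and a summed signal of 3.35 to 4.83 against 3.81 to 4.39. Among them Cd4 hardly differed, at -0.00051 ± 0.13 (SE), and was higher in mouse 2 by 0.30. Cd79a was at -0.21 ± 0.22 (SE) and lower in 2 of 4 mice. Of these 3 genes 1, Cd3e, had an unadjusted p under 0.05 in limma, without a block and with either block. The shares of all genes were 3.40% without a block, 9.26% with the fixed and 9.50% with the random one. Cd3e was at -0.15 ± 0.063 (SE), with a 95% interval from -0.29 to -0.0029. It was lower in 4 of 4 mice, as Klf2 and Klf4 were, beside 8.86% of all genes. Its adjusted p in limma rounded to 1 and was 0.496 with the fixed and 0.348 with the random block. Neutrophil (4 of 5 tested), fibroblast (3 of 4), dendritic (1 of 4) and erythroid or megakaryocyte (1 of 5) lists had medians of -0.0090, 0.056, -0.078 and 0.032. Their summed signals in controls and treated cultures were 4.00 to 6.18 and 4.41 to 5.90 for neutrophils and 0.766 to 2.59 and 1.02 to 2.85 for fibroblasts. Dendritic genes summed to 89.1 to 96.3 and 82.7 to 96.7, and erythroid and megakaryocyte genes to 51.4 to 103 and 60.4 to 92.1. Their part in the Klf2 and Klf4 differences was not tested.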

How the data were processed

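Per the file headers, the deposited intensity values were made with Agilent Feature Extraction 10.7.3.1 (protocol GE1_107_Sep09, design 028005, probe positions on mm9) from 1-colour Cy3 arrays, with spatial and multiplicative detrending switched on. The labels list an amount of 0.2 µg for each sample of total RNA. All 8 arrays lay on 1 slide, scanned in 1 session; the groups lay in different slide columns, and the effects of column and siRNA cannot be told apart. The authors' deposited log2 table has column medians of 6.26 to 6.27 and correlated at 0.9998 or more with the log2 raw median signal. Its columns share 1 maximum, 18.6, and once sorted differ by at most 0.075, as quantile-normalized columns would; the method is not given in the sources used here. It served as an alternative.

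The 3671 control spots and outlier-flagged spots were left out, log2 processed signals were centred on the 75th percentile of each array, and spots of a probe were averaged. Probes well above background on at least 4 arrays with no missing value were kept (26774). Accessions were matched to RefSeq (GRCm38.p6) for 26762 of all 55681 probes, and the others kept their array name. Each gene was represented by its brightest kept probe. Of the 19259 genes tested, 13494 had a symbol or synonym in that reference, and shares of all genes include the rest. limma 3.58.1 in R 4.3.3 (lmFit, eBayes, two-sided) compared the groups over 19259 genes with Benjamini-Hochberg adjustment at 0.05; single probes were fitted over all kept probes. The fit without a block was tested on simulated data with no mouse effect and with added changes larger than those of the members. That test covered neither the block fits nor changes as small as those of the members. The series design states 2 conditions on 4 mice. Arrays sharing a replicate number were assigned here to the same mouse. Their deviations from the group means correlated at 0.62, 0.16, 0.58 and 0.29 for mice 1 to 4. These correlations cannot test that assignment, because such arrays also lay side by side in the same slide row. The block fits and the differences within mice depend on this assignment. All p-values rest on these 4 mice. The members and gene lists were chosen with earlier results of these data known. The text names every member, the gene most correlated with each, and the 2 genes of each list with the smallest p. The alternatives changed background correction, normalization, centring, the filter, the choice of probe, the source of values, array weights, blocks, and the arrays or mice included. Unscaled signals, and the other scalings of the mouse 1 values, were added after seeing the data. The level of 1 listed marker gene is not reported here. No annotation of mm9 was used, so exon and UTR positions of the probes are not given.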

Additional observations from a re-analysis of the deposited data

Results flagged for a closer look

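Of 20 groups of 4 values examined (10 probes in each siRNA group), 5 had an array set apart from the other 3 by more than Dixon's 95% critical value for the gap over the range, where chance flags about 1 in 20. Over all kept probes 6.07% of such groups had an array set apart, and mouse 1 was that array in 48.4% of them. All 5 here were arrays of mouse 1. Klf9 was lowest there in the control (-1.53) and in the treated culture (-1.61). Klf2 was highest there in the treated culture (2.22), Klf6 in controls (6.20) and Klf13, on the probe used for the gene, in the treated culture (2.99). The 75th percentile used for scaling was also lowest on both arrays of mouse 1, and its part in these values was not tested beyond the scalings given above.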

How the results depend on the processing

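Over 24 alternatives, 0 of 8 members passed in limma in any, and the count of lower members stayed between 3 and 6. Klf2 (-0.34 to -0.17), Klf4 (-0.20 to -0.13), Klf7 (0.046 to 0.14) and Klf10 (-0.13 to -0.0098) kept their direction in all 24. The lowest adjusted p of any alternative was 0.275 for Klf2 and 0.264 for Klf4, both with the mouse as a block. The mouse as a fixed replicate block gave 0 members and 0 genes called, and the random block 0 members and 11 genes (0.0571%). No call of a member changed under either. Array weights called 1 gene. Members with differences near 0 changed sign. Klf6 was at -0.013 with normexp, -0.0035 with quantile normalization, -0.016 with both and -0.019 with the deposited table. Klf3 was at -0.0087 with normexp and -0.0098 with normexp and quantile. Klf13 was at -0.0049 with quantile, -0.022 as the mean of its kept probes and -0.020 with the deposited table, where Klf9 was at 0.0074. Leaving out 1 array at a time gave -0.34 to -0.17 for Klf2, -0.20 to -0.13 for Klf4, -0.017 to 0.059 for Klf6, 0.046 to 0.14 for Klf7, -0.031 to 0.077 for Klf3, -0.19 to 0.14 for Klf9, -0.13 to -0.012 for Klf10 and -0.035 to 0.044 for Klf13. Leaving out both arrays of a mouse gave -0.28 to -0.24 for Klf2, -0.19 to -0.13 for Klf4, -0.017 to 0.030 for Klf3, -0.11 to -0.0098 for Klf10 and -0.016 to 0.024 for Klf13. Without the control array with the lower RNA integrity number, of mouse 4, Klf2 was at -0.26 and Klf4 at -0.15. The number of arrays limits the precision throughout.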
